A study of Mus musculus with 9 samples.

Results

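The clustered histone genes are the genes whose mouse symbols begin with Hist1h, Hist2h, Hist3h or Hist4h. They were taken from the deposited counts by their Ensembl identifiers, with symbols and positions from GENCODE M21 on GRCm38, and were kept where they had at least 10 counts summed over the 9 libraries. Of 55487 rows in the table, 70 carry such a symbol and 61 met the count rule, of which 58 are annotated as protein-coding and 3 as pseudogenes (Hist3h2bb-ps, Hist1h2aj and Hist1h2al). Just inside the rule were Hist1h2ap with 13 counts and Hist1h4j with 14, and just outside were Hist1h2bl with 8 and Hist1h2bm with 4. A filter on low counts left 51 of the 61 for testing, and the other 10 were too low.

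The RNA is from B16F10 mouse melanoma cells kept for 6 h under 1 of 3 conditions. These were plain medium (media), 50 ng/mL of interferon gamma (IFNγ), and the same IFNγ dose together with 50 nM of FK866. FK866 blocks Nampt, which carries out the limiting step of NAD salvage, and no group with FK866 alone was analysed here. Every condition has 3 libraries, titled Control 3, Control 4 and Control 5. What the numbers mean, and whether different cultures lie behind them, is not in the labels, so a p-value here covers the spread between libraries and may be technical. The treatment protocol allows for mouse or human IFNγ and gives a mouse product.

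Replication-dependent histone genes supply the proteins that package newly made DNA, and their mRNAs build up in S phase and are degraded when DNA synthesis stops. Most of these mRNAs carry no poly(A) tail: the pre-mRNA is cleaved just after a conserved stem-loop, which is bound by the stem-loop binding protein Slbp. The genes lie in clusters, in many nearly identical copies, and encode the linker histone H1 and the core histones H2A, H2B, H3 and H4.

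The stem-loop is shown because it is the sequence feature that sets these mRNAs apart. A stem of 6 bases around a loop of 4, found by its sequence in the annotated transcripts, was present in 41 of the 61 genes and in 66 of all 55450 genes with a transcript (0.119%). Capitals mark the stem and lower case the loop, written 5′ to 3′ as DNA. One example per family is given, from a gene with many counts.
Hist1h1e (H1): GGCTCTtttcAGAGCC
Hist2h2ac (H2A): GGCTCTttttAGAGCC
Hist1h2bg (H2B): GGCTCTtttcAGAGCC
Hist1h3f (H3): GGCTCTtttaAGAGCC
Hist1h4d (H4): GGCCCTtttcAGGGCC
The form of Hist1h1e and Hist1h2bg was shared by 22 genes of the H1, H2A, H2B and H3 families, and that of Hist1h3f by 6 genes of H1, H2B and H3. The form of Hist1h4d occurred in 6 genes, all of the H4 family, and no H4 gene held the form of Hist1h1e. Of the 20 genes without an annotated stem-loop, 11 have at most 30 annotated bases outside their coding part, so their annotation may stop before it. Another 3 are not protein-coding. Others have longer annotated ends, such as Hist2h2be with 2242 and Hist1h2bc with 778 bases outside the coding part. The search used a set sequence pattern, so other forms of the stem-loop would be missed. In 21 genes the annotated transcript runs at least 100 bases past the stem-loop.

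Promoter sequences from RefSeq (GRCm38.p6) were matched for 53 of the 61 genes and searched over 250 bases before the start, on both strands, for 3 motifs: the TATA box (TATAAA), the CCAAT box (by its own letters) and the octamer (ATTTGCAT). No motif contains another. TATAAA was found in 24 of the 53 promoters (45.28%, against 12.37% of all 32851 RefSeq promoters), CCAAT in 44 (83.02% against 33.85%) and ATTTGCAT in 11 (20.75% against 1.601%). CCAAT was present in all 5 H1, all 17 H2A and all 11 H2B promoters but in 3 of 11 H4 promoters. The octamer was found in 6 H2A and 5 H2B promoters and in no promoter of the other families. As both strands were searched, a motif between close neighbours that point apart can count for both genes. Hist1h2ae (minus strand, up to 23571220) and Hist1h2bg (plus strand, from 23571396) lie this way, and both held the octamer. The promoters counted are therefore not all separate stretches of DNA. Printed here are the 150 bases before the RefSeq start of 3 genes that differed strongly between libraries and of Hist3h2a, which did not. Capitals mark the 3 motifs in either orientation, each sequence reads 5′ to 3′ on the strand of its gene, and a match is a description and not a shown site.
Hist1h4d, chr13:23581418-23581567, plus strand: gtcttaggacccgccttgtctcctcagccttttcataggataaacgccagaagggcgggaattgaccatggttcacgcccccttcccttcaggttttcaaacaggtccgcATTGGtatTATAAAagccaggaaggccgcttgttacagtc
Hist1h1e, chr13:23622559-23622708, minus strand: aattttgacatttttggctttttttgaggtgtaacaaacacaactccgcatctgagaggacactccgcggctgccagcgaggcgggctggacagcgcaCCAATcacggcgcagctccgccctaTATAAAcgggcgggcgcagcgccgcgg
Hist1h2bg, chr13:23571250-23571399, plus strand: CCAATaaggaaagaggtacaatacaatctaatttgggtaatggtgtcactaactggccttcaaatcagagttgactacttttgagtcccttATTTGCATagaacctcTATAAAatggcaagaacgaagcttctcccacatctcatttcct
Hist3h2a, chr11:58954535-58954684, plus strand: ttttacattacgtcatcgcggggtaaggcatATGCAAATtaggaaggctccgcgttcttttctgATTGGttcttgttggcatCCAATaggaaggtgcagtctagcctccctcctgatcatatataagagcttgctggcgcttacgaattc

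Library totals ran from 15317003 to 18466972 counts. Markers of the melanocyte lineage summed to between 14980 and 19020 CPM (counts scaled to the library's TMM-normalised size) in the 9 libraries. The 5 leukocyte markers summed to at most 11.34 CPM and the 7 markers of fibroblasts, endothelium and keratinocytes to at most 8.165 CPM, with 3 genes of each list at 0 in every library. The IFNγ-induced transcription factor Irf1 averaged 17.27 ± 3.31 CPM in the media libraries. It averaged 787 ± 34.16 CPM in the IFNγ libraries and 746.6 ± 42.43 CPM when FK866 was added (SD, n = 3).

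Histone counts came mostly from the large cluster of chromosome 13 and from chromosome 3. The stretch of chromosome 13 between 23531050 and 23934851 holds 30 of the 61 genes and 74.5% of their counts, and the cluster of chromosome 3 between 96219865 and 96270132 holds 9 genes and 19.46%. Between 21715763 and 21837530 on chromosome 13 there are 13 genes, but they took 1.553% of the counts. In those 13 genes a median of 12.4% of the 50-base windows of the transcripts are unique, so reads from their copies can be hard to place. A unique window occurs in no other annotated gene, except that genes with overlapping exons were not counted as copies. Windows shared with an overlapping gene thus count as unique, and 24 of the 61 genes have such an overlap. Over all 61 genes, 32 have at least 50% unique windows and 29 have fewer, and how the counting treated reads with several matching places is not stated in the labels. In 22 of the 61 genes an exon overlaps a gene on the opposite strand, and with no strand setting stated such reads cannot be told apart.

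The 12 genes with most counts held 63.9% of all histone counts: Hist1h4d, Hist1h1e, Hist2h3b, Hist1h1c, Hist1h1d, Hist1h3f, Hist2h4, Hist1h4a, Hist1h3e, Hist2h2bb, Hist1h4h and Hist1h4c. Per length the order was another one. Hist2h3b, an H3 gene, had the highest level at 825.9 CPM per kb of annotated exon, followed by the H2B gene Hist2h2bb at 706.6 and the H4 gene Hist1h4d at 570.2. This order depends on the annotated length. Outside their coding part Hist2h3b has 80 annotated bases and Hist2h2bb 3, while Hist1h4d has 829, with 770 past its stem-loop. Hist2h3b has 20.3% unique windows, and Hist2h2bb shares exon sequence on its own strand with Gm42743, which had 541 to 1596 counts per library beside 2546 to 7528 for Hist2h2bb. On average 22 genes reached 100 CPM and 13 stayed under 1 CPM.

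Histone gene levels were ordered by the number in the titles. In every treatment the library titled Control 3 had the lowest sum and the library titled Control 5 the highest. Summed over the 61 genes, the media libraries 3, 4 and 5 reached 4033, 6280 and 8380 CPM. The IFNγ libraries, in the same order, reached 4424, 6159 and 9238 CPM, and those with FK866 added 4847, 5729 and 9337 CPM. The libraries of one number did not overlap those of another, whereas the 3 treatments overlapped widely. By number the means were 4435 ± 407.1, 6056 ± 289.6 and 8985 ± 526.3 CPM, and by treatment 6231 ± 2174, 6607 ± 2438 and 6638 ± 2379 CPM (SD, n = 3 each). The libraries of a number come from different treatments, so the SD by number is not a spread of replicates. Histone genes took from 0.4153% to 0.9309% of the counts of a library. In bulk RNA, fewer cells with histone mRNA and less histone mRNA per cell cannot be told apart.

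All 5 families showed this order in each treatment. The H1 sum, over 5 genes, was 752.2 ± 76.7 CPM in libraries 3, 1078 ± 58.16 in libraries 4 and 1649 ± 155.1 in libraries 5. H2A, with 19 genes, stood at 512.2 ± 73.62, 703.1 ± 64.78 and 1032 ± 58.48 CPM, and H2B, with 14 genes, at 672.9 ± 65.92, 887.2 ± 41.4 and 1425 ± 121.7 CPM. No treatment had a library 3 above its library 4, or a library 4 above its library 5, in any of these sums. The 11 H3 genes summed to 996.9 ± 47.81, 1369 ± 73.89 and 1887 ± 86.69 CPM, and the 12 H4 genes to 1501 ± 152.7, 2018 ± 105.6 and 2992 ± 162.6 CPM (SD across treatments, n = 3).

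**Figure D1:**
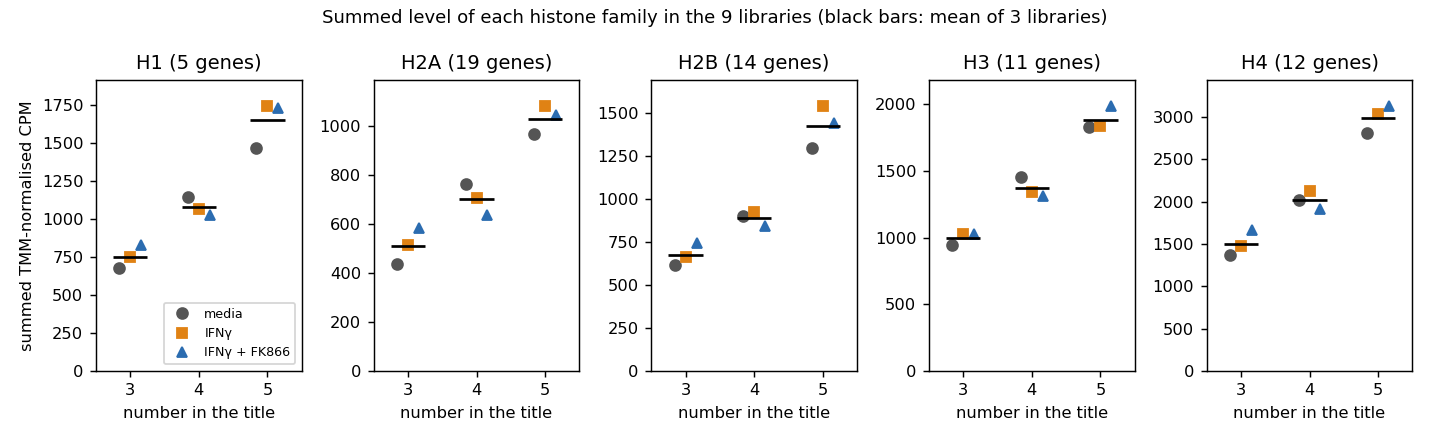
Each panel gives the summed TMM-normalised CPM of 1 histone family, with the number in the title on the x axis, 1 point per library and black bars for the mean of 3 libraries. In all 5 families libraries 3 are lowest and libraries 5 highest in each of the 3 treatments.

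Gene by gene, 39 of the 51 tested histone genes were lower in libraries 3 than in the mean of libraries 4 and 5, and none was higher (edgeR quasi-likelihood test with treatment in the fit, Benjamini-Hochberg adjusted p below 0.05 over 15237 genes). Among all genes tested, 38.5% were called in this comparison, 18.9% lower and 19.6% higher. The median log2 difference was -0.72 over the 51 genes and -0.002 over all genes. Between libraries 4 and 5, 38 of 51 were lower in 4 and none higher, where 31.1% of all genes were called, 15.2% lower and 15.9% higher. The median was -0.58 over the histone genes and 0.01 over all genes. No number has a replicate within a treatment, so these p-values cover the spread left after treatment and number. DESeq2 called 35 and 33 histone genes in these comparisons, beside 32.9% and 25% of all genes. With limma-voom the counts were 40 and 35, beside 38.9% and 30.6% of all genes.

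In 27 of 51 genes all libraries 3 lay below all libraries 4 and 5, which held for 11% of all genes tested. In 38 of 51 all libraries 4 lay below all libraries 5, against 17.1%. The full order, 3 below 4 below 5 within each treatment, was found in 29 of 51 histone genes and in 6.58% of all genes. The map of all 51 genes shows this as a change from blue to red between the blocks of libraries, with little difference between treatments inside a block.

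**Figure D2:**
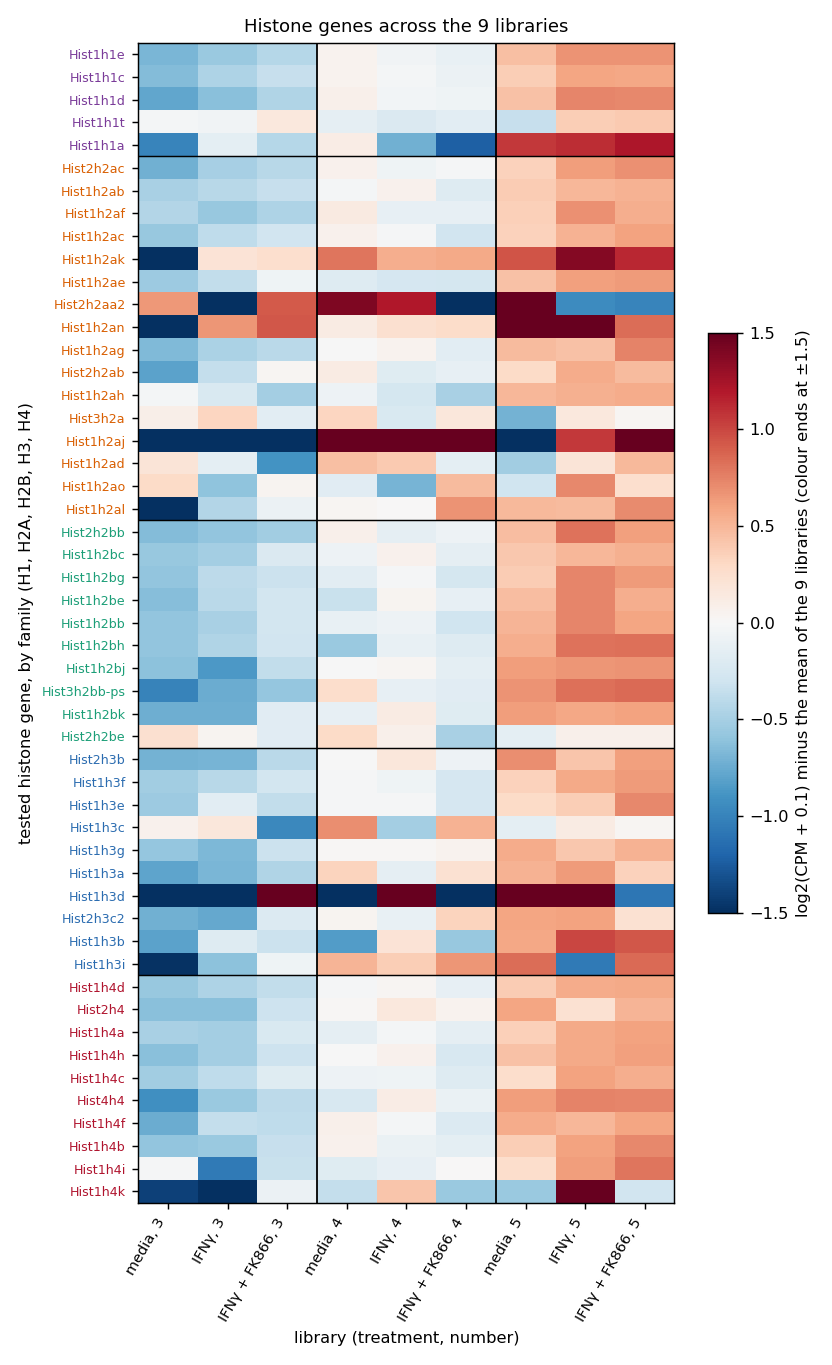
Rows are the 51 tested histone genes by family, columns the 9 libraries ordered by number and then treatment, and colour is log2(CPM + 0.1) minus the mean of the row, cut at ±1.5. Most rows are blue in libraries 3, pale in libraries 4 and red in libraries 5; a few rows, such as Hist3h2a, Hist2h2be and Hist1h1t, lack this pattern, and rows such as Hist2h2aa2, Hist1h2aj and Hist1h3d jump between single libraries.

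Linker histones bind the DNA between nucleosomes. Hist1h1e (chromosome 13, 23620629 to 23622558) had 262.1, 436.8 and 579.3 CPM in media libraries 3, 4 and 5, then 287.2, 406.1 and 673.3 with IFNγ, and 313.5, 389.6 and 675.3 with IFNγ and FK866. Libraries of different numbers did not overlap. It was 1.79-fold lower in libraries 3 than in 4 and 5 (log2 -0.84, SE 0.07, adjusted p = 6.138e-09) and 1.56-fold lower in 4 than in 5 (log2 -0.64, SE 0.07, adjusted p = 2.329e-06). Its exons overlap those of Hist1h2be on the same strand, which had 987 to 2705 counts per library. Hist1h1d (log2 -0.93 and -0.64) and Hist1h1c (log2 -0.73 and -0.53) were called in both comparisons too. Hist1h1a, a linker histone gene with few counts here (0.572 to 3.536 CPM), was 3.33-fold lower in libraries 4 than 5 (adjusted p = 8.651e-04), while its adjusted p for libraries 3 was 0.0594.

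Among core histones, H3 and H4 form the central tetramer of the nucleosome. The H4 gene Hist1h4d (chromosome 13, 23581598 to 23582735) had 421, 616.9 and 813 CPM in media libraries 3, 4 and 5, 451.5, 635 and 920 with IFNγ, and 481.1, 574.5 and 926.8 with IFNγ and FK866. Each number again formed a group of its own. The log2 difference was -0.70 (SE 0.06, adjusted p = 1.353e-08) for libraries 3 and -0.54 (SE 0.07, adjusted p = 4.731e-06) for 4 against 5. Of the 10 tested H4 genes, 9 were called lower in libraries 3 and all 10 lower in libraries 4 than 5. Hist2h4 (log2 -0.78 and -0.37), Hist1h4a (-0.61 and -0.61), Hist1h4h (-0.72 and -0.59) and Hist1h4c (-0.54 and -0.58) were among them. The call of Hist2h4 between 4 and 5 was lost when treatment was left out of the fit.

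The H3 gene Hist2h3b (chromosome 3, 96268654 to 96269141) had 232.9, 379.5 and 615.3 CPM in media libraries 3, 4 and 5, 234.5, 429.5 and 506.8 with IFNγ, and 288.1, 359.7 and 581.3 with IFNγ and FK866. Numbers did not overlap. Its log2 differences were -0.90 (SE 0.08, adjusted p = 2.686e-08) and -0.54 (SE 0.09, adjusted p = 1.084e-04). Hist1h3f (log2 -0.61 and -0.63) and Hist1h3e (-0.55 and -0.55) followed it, and the H3 family had 7 of 10 genes called in libraries 3 and 6 of 10 between 4 and 5. Hist1h3a had a log2 difference of -0.96 in libraries 3 (adjusted p = 9.432e-08). Hist1h3b, at 1.096 to 4.205 CPM, was 2.40-fold lower in libraries 4 than 5 (adjusted p = 0.00123).

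H2A and H2B form the dimers that flank the tetramer. The H2B gene Hist2h2bb (chromosome 3, 96269752 to 96270132) had 160.9, 266.9 and 348.1 CPM in media libraries 3, 4 and 5, 167.6, 231.1 and 445.9 with IFNγ, and 176.6, 239.3 and 386.6 with IFNγ and FK866. All libraries 3 were lowest and all libraries 5 highest. Its log2 differences were -0.89 (SE 0.07, adjusted p = 1.015e-08) and -0.67 (SE 0.08, adjusted p = 3.34e-06). H2B had 9 of 10 genes called in each comparison. In Hist1h2bh the step lay mainly at library 5: media libraries 3 and 4 were close at 37.1 and 38.02 CPM while library 5 had 82.2, and the log2 difference between 4 and 5 was -1.02 (SE 0.07, adjusted p = 1.408e-09).

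In H2A 11 of 16 genes were called lower in libraries 3 and 9 of 16 lower in 4 than 5. Hist2h2ac, its gene with most counts, had log2 differences of -0.82 (adjusted p = 1.165e-08) and -0.56 (adjusted p = 1.372e-05). Hist1h2ah was 1.76-fold lower in libraries 4 than 5 (adjusted p = 6.007e-04). The pseudogene Hist3h2bb-ps, an H2B-type copy on chromosome 11 with 70% unique windows, also differed, at log2 -1.16 in libraries 3 (SE 0.11, adjusted p = 6.222e-08).

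**Figure D3:**
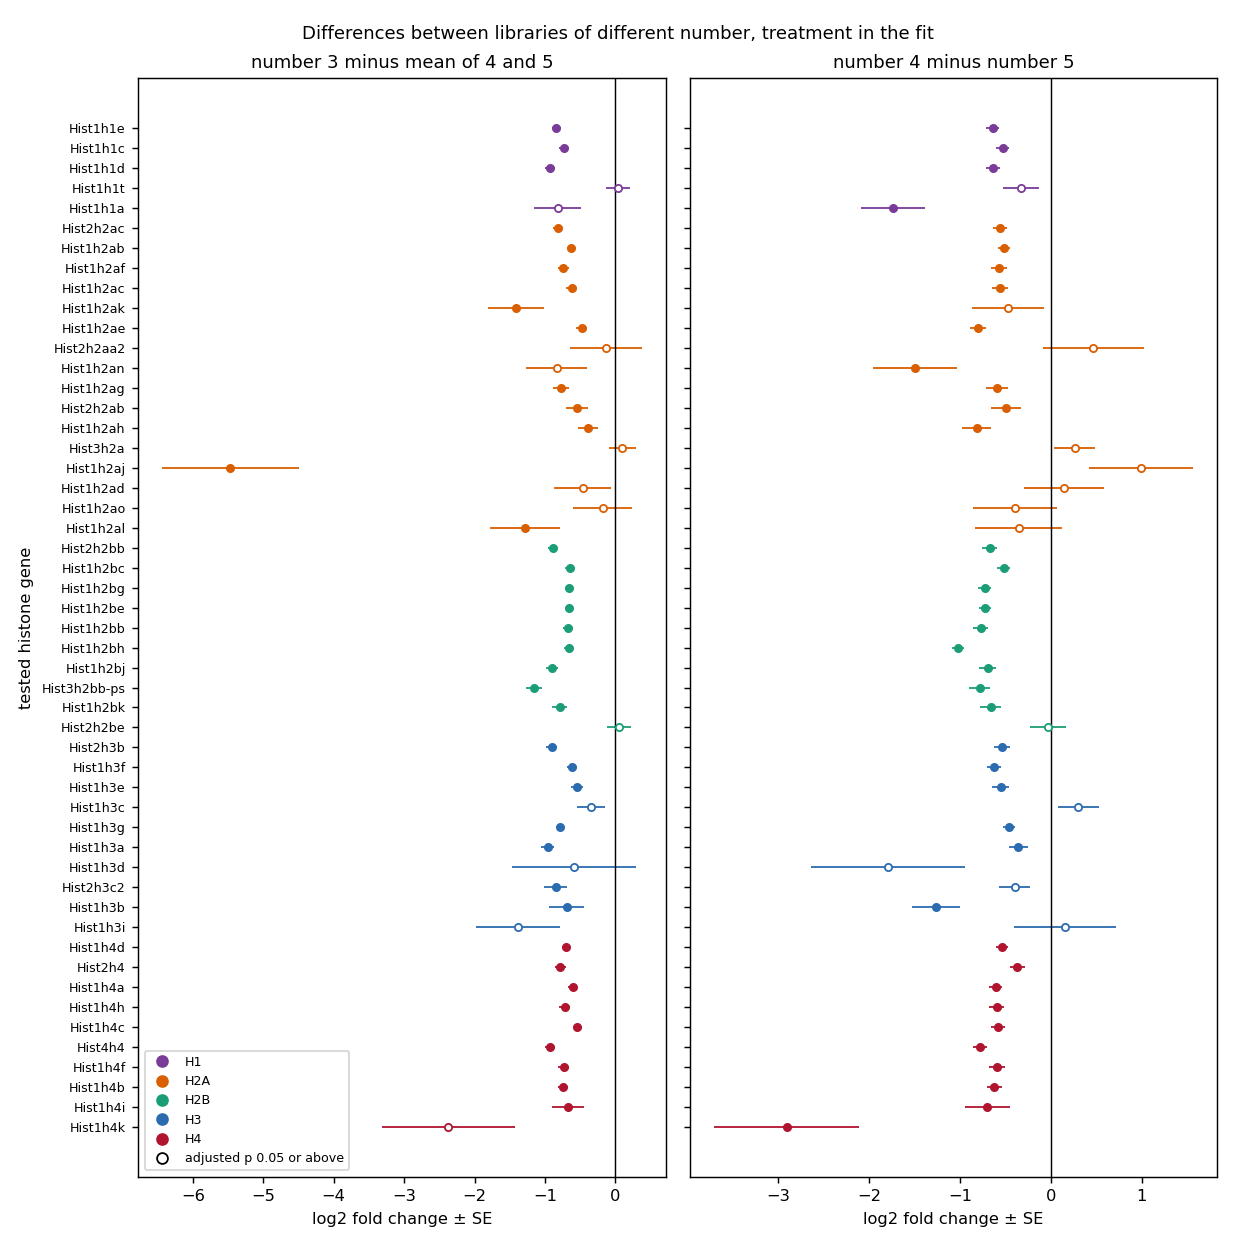
Log2 fold change with its SE for each tested histone gene, libraries 3 minus the mean of 4 and 5 on the left and libraries 4 minus 5 on the right, coloured by family; filled points have an adjusted p below 0.05. The 39 called genes on the left and 38 on the right all lie below 0, and the widest error bars belong to genes with jumps in single libraries.

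Called in neither comparison were 9 of the 51 genes. Of these, 3 had libraries over 5-fold from their median (Hist1h3d, Hist1h3i and Hist2h2aa2), and 2 had few unique windows and under 1 CPM on average (Hist1h2ad and Hist1h2ao). The other 4, described here, were singled out after their values were seen. Hist3h2a had 5.775, 6.847 and 3.283 CPM in media libraries 3, 4 and 5, 6.848, 4.629 and 6.101 with IFNγ, and 4.859, 6.136 and 5.566 with IFNγ and FK866, with no order by number. Its log2 differences were 0.10 (95% interval -0.31 to 0.51) and 0.26 (-0.22 to 0.74). Hist2h2be ranged from 3.796 to 6.574 CPM with differences of 0.05 (-0.31 to 0.41) and -0.03 (-0.44 to 0.38). Hist1h1t, the testis-type linker histone, ranged from 4.059 to 6.81 CPM with differences of 0.04 (-0.32 to 0.39) and -0.33 (-0.74 to 0.08). For libraries 3 these 3 intervals lie above -0.72, the median of the 51 genes. Windows of Hist2h2be and Hist1h1t are 100% unique, and those of Hist3h2a 98%. Exons of Hist3h2a (55 to 125 counts per library) overlap Trim17 on the same strand (0 to 3) and Gm44313 on the opposite strand (0 to 9). Hist1h3c, with much higher counts, ranged from 76.57 CPM in IFNγ and FK866 library 3 to 244.5 in media library 4 in no order by number (log2 -0.35, adjusted p = 0.182, and 0.30, adjusted p = 0.347).

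Genes were called on both sides of each split by sequence. Among all genes tested, 18.9% were called lower in libraries 3 and 15.2% lower in libraries 4 than 5. Of the 30 tested genes with at least 50% unique windows, 24 were lower in libraries 3 and 25 lower in libraries 4 than 5. Of the 21 with fewer, the counts were 15 and 13. With an annotated stem-loop, 29 and 28 of 36 genes were called, and without one 10 and 10 of 15. Summed levels of the stem-loop genes were 2.006-fold higher in library 5 than in library 3 in media, 2.041-fold with IFNγ and 1.922-fold with IFNγ and FK866. Those of the genes without one were 2.462-fold, 2.331-fold and 1.947-fold higher.

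In 10 genes with at least 50 counts, 1 or more libraries lay over 5-fold from the median of the gene, and this group was also picked after values were seen. Hist1h2ak, an H2A gene with 47.7% unique windows, had 11 counts in media library 3 and 788 to 1977 in the other 8. Hist1h2an had 0 counts in media library 3 but 311 and 441 in the other libraries 3. Hist1h4k took 410 of its 472 counts, and Hist1h4n 100 of 102, from IFNγ library 5. Neither gene had over 15 counts in any other library.

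Hist1h2bf took 172 of 223 counts from media library 4. Hist1h3d had 357 counts in media library 5, 271 and 459 in IFNγ libraries 4 and 5, and 233 in IFNγ and FK866 library 3, but at most 25 in the other 5. Hist2h2aa2, in which no 50-base window is unique, had 63 to 170 counts in 4 libraries and 486 to 1131 in the other 5. The pseudogene Hist1h2aj had 42 to 63 counts in libraries 4 and 0 to 2 in libraries 3, with 1, 23 and 54 in libraries 5.

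These jumps weigh on single calls. Hist1h2ak was called lower in libraries 3 (log2 -1.41, adjusted p = 0.00738) but not with DESeq2 or without the treatment term, and Hist1h2al (log2 -1.29, adjusted p = 0.0462; 1 to 16 counts) lost its call in 11 of 16 alternatives, with -0.88 without media library 3. Hist1h2aj was 44.2-fold lower in libraries 3 by the fitted value, which rests on counts of 0 to 2 and is no bound. Between libraries 4 and 5, Hist1h2an (2.83-fold lower in 4, adjusted p = 0.0176) lost its call in 7 of 16 alternatives, with log2 -0.90 without media library 5. Hist1h4k (log2 -2.91, adjusted p = 0.009) turned to 0.33 without IFNγ library 5. Without these 10 genes the sums were 4354 ± 358.6, 5923 ± 254.1 and 8782 ± 550.7 CPM in libraries 3, 4 and 5 (SD across treatments, n = 3).

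**Figure D4:**
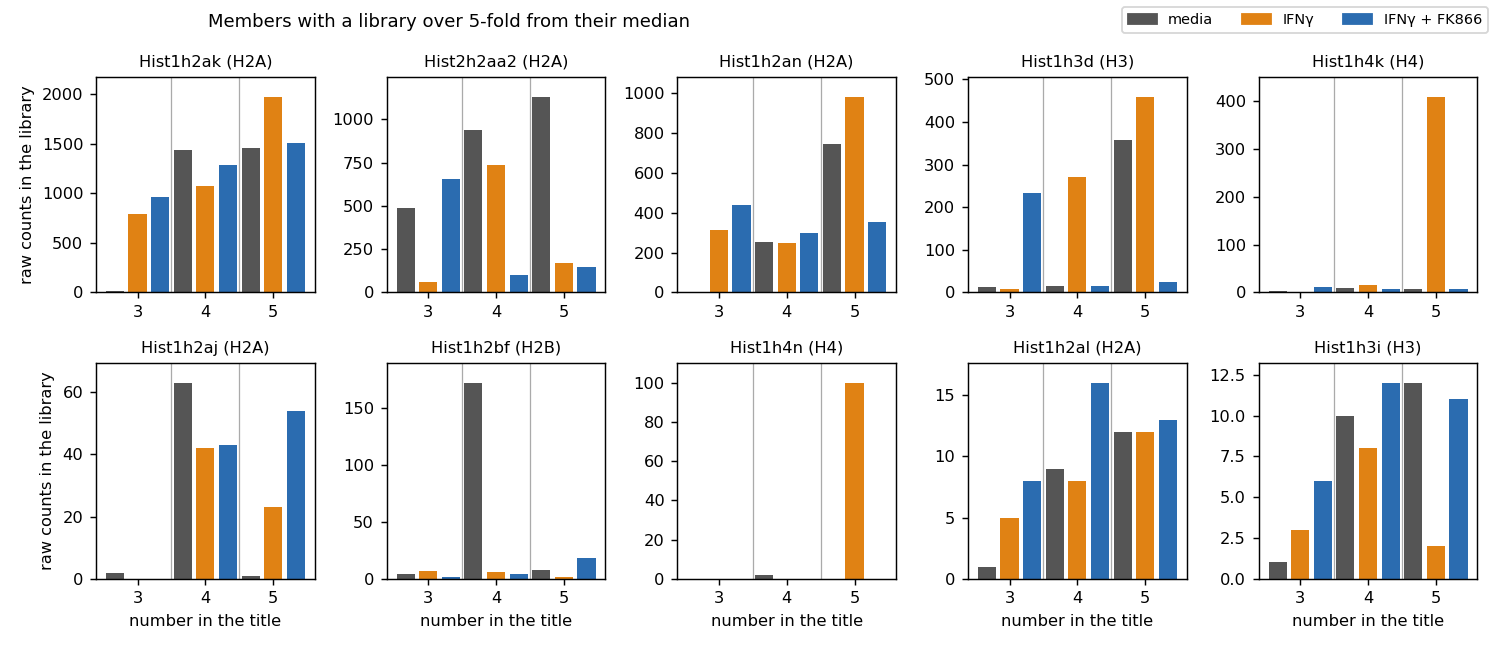
Raw counts per library of the 10 histone genes with a library over 5-fold from their median, bars coloured by treatment and ordered by the number in the title. The low bars of Hist1h2ak and Hist1h2an lie in media library 3 and the single high bars of Hist1h4k and Hist1h4n in IFNγ library 5.

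IFNγ against media asks for the response to the cytokine. No histone gene was called in the fit without the number (0 of 51 with edgeR, DESeq2 and limma-voom, 1 of 51 at an unadjusted p below 0.05), where 3.3% of all genes were called, 2.8% higher and 0.499% lower. The median log2 difference was 0.10 over the 51 genes, and the median SE of 0.376 was wide because libraries of one treatment differ by number. In no gene did all media libraries lie below all IFNγ libraries, which held for 7.97% of all genes.

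The numbers pair the libraries, so the same comparison was also made within numbers. With the number as a block, 5 of 51 genes were higher with IFNγ (9.8%) and none lower, beside 14.3% of all genes called, 8.12% higher and 6.14% lower. The share of histone genes called higher was thus near that of all genes. The H2B gene Hist1h2be had 61.95, 76.25 and 132.4 CPM in media libraries 3, 4 and 5 and 72.76, 98.92 and 160.2 with IFNγ. It was higher with IFNγ in 3 of 3 numbers while the treatments overlapped (log2 0.30, SE 0.07, adjusted p = 0.00364 with the block and 0.9999 without). Its exons overlap those of Hist1h1e on the same strand, which had 4175 to 11368 counts per library beside 987 to 2705 for Hist1h2be. Hist1h2bh, also H2B, had 37.1, 38.02 and 82.2 CPM in media and 41.22, 51.89 and 98.85 with IFNγ, again higher in 3 of 3 (log2 0.29, adjusted p = 0.00546).

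Hist4h4, the H4 gene of chromosome 6 (136801553 to 136804415), had 84.8, 135.9 and 249.3 CPM in media and 109.6, 174 and 268.3 with IFNγ. All 3 numbers were higher with IFNγ (log2 0.27, adjusted p = 0.0188), as they were for Hist1h2bg (log2 0.23, adjusted p = 0.0396). Hist1h4k was called at log2 3.69 (adjusted p = 0.00478), but 410 of its counts lay in IFNγ library 5, and without number 5 the value was 0.46 (adjusted p = 0.836). DESeq2 and limma-voom with the block kept the calls of the other 4 genes and not that of Hist1h4k. With 1 number left out and the block kept, Hist1h2be and Hist1h2bh missed the threshold without number 4 (adjusted p = 0.0739 and 0.149), Hist4h4 without 3 or 4 (0.0618 and 0.152), and Hist1h2bg without 3 or 5 (0.0543 and 0.246). The counts over the tested histone genes were then 4 higher and 2 lower without number 3, 3 higher and 1 lower without number 4, and 3 higher and 0 lower without number 5, beside 12.3%, 9.29% and 12% of all genes called.

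Adding FK866 to IFNγ asks whether Nampt inhibition changed that state. No histone gene was called (0 of 51 with edgeR, 1 at an unadjusted p below 0.05; 0 with DESeq2 and limma-voom), and of all genes 0% were called. With the block the count was again 0 of 51 (2 at an unadjusted p below 0.05), beside 0.0197% of all genes, 0.0131% higher and 0.00656% lower. The histone median was 0.01 with a median SE of 0.095. For Hist1h4d, 451.5, 635 and 920 CPM with IFNγ stood against 481.1, 574.5 and 926.8 with FK866 added, higher in 2 of 3 numbers. Hist1h4k had the smallest p (log2 -2.97, adjusted p = 0.987 with the block), a value that includes the 410 counts of IFNγ library 5. Hist1h3g had the second smallest p, with 79.73, 129.2 and 169 CPM against 101.6, 132.2 and 183.1 (log2 0.16, 95% interval 0.02 to 0.30, adjusted p = 0.987). A p that misses the threshold does not show that FK866 left these genes alone.

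IFNγ with FK866 against media shares libraries with both comparisons above. Without the block 0 of 51 genes were called (none at an unadjusted p below 0.05; 0 with DESeq2 and limma-voom), where 3.36% of all genes were, 2.76% higher and 0.597% lower. With it 3 of 51 were higher and none lower, beside 16.1% of all genes called, 8.53% higher and 7.61% lower. They were Hist1h2bh (log2 0.32, adjusted p = 0.00215), Hist4h4 (0.25, adjusted p = 0.0303) and Hist1h2be (0.22, adjusted p = 0.0321). Without number 3 the calls of Hist4h4 (adjusted p = 0.302) and Hist1h2be (0.147) were lost, and that of Hist1h2be also without number 4 (0.106). The count itself depended on the number left out: 1 gene was higher and 3 lower without number 3 (17% of all genes called), 14 of 51 were higher and 0 lower without number 4 (9.26% of all genes), and 3 of 49 were higher and 0 lower without number 5 (12.4% of all genes).

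**Figure D5:**
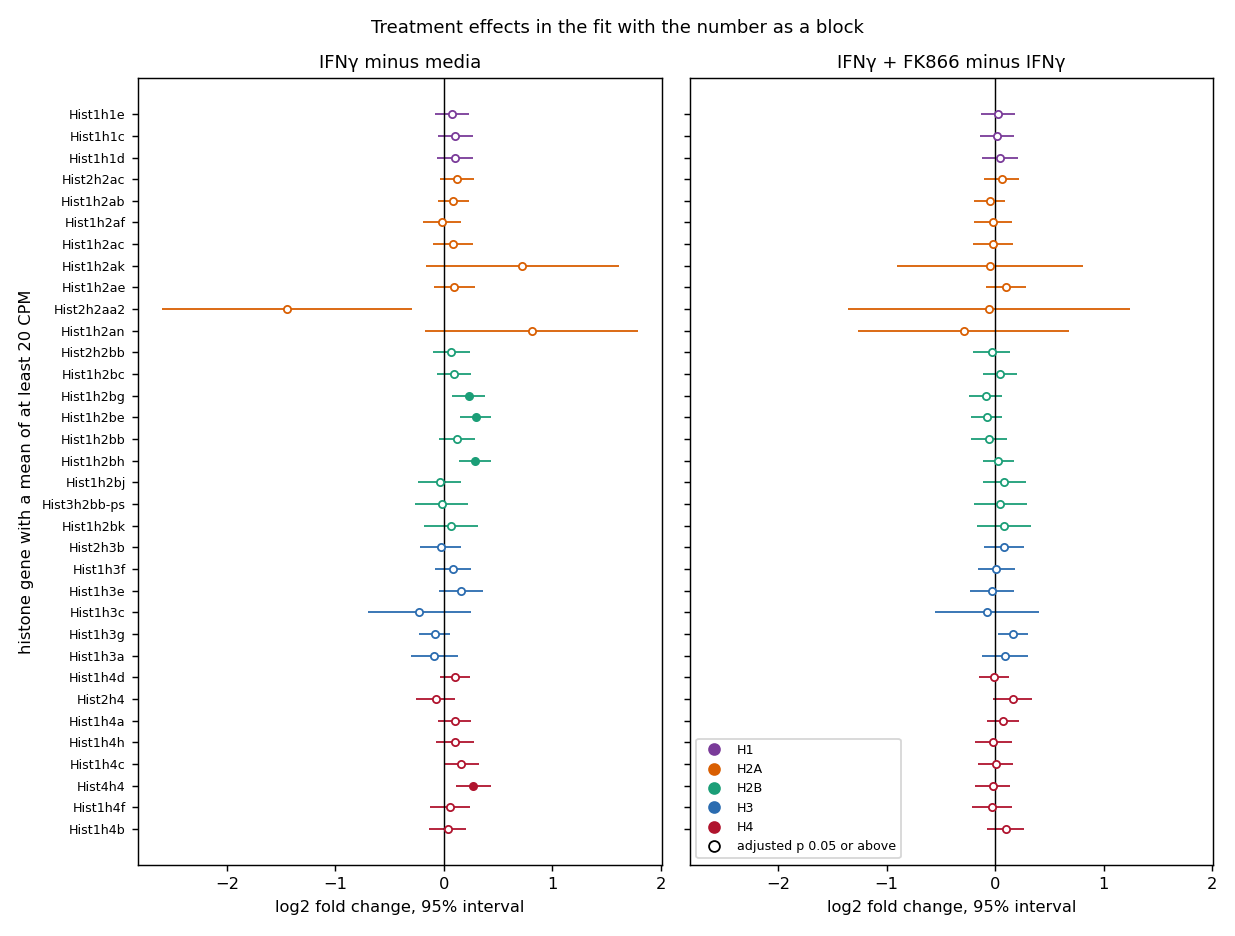
Log2 fold change with its 95% interval in the fit with the number as a block, IFNγ minus media on the left and IFNγ with FK866 minus IFNγ on the right, for tested histone genes with a mean of at least 20 CPM; filled points have an adjusted p below 0.05. Filled on the left are Hist1h2bg, Hist1h2be, Hist1h2bh and Hist4h4, and no point is filled on the right.

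Genes that make or handle histone mRNA were called in both directions. Of 18 genes for stem-loop binding and 3′ processing, 3 were higher and 4 lower in libraries 3, and 3 higher and 5 lower in 4 than in 5. The 38.9% called in libraries 3 lies at the 38.5% of all genes, and the 44.4% called between 4 and 5 stands beside 31.1%. Npat, which activates transcription of the clustered histone genes, fell by 0.50 on the log2 scale in libraries 3 relative to 4 and 5 (adjusted p = 3.338e-07). Sympk, the scaffold of the cleavage complex, had a log2 difference of -0.61 (adjusted p = 7.535e-08) and Eri1, an exonuclease that trims the stem-loop end, one of -0.27 (adjusted p = 0.00115). Slbp had 53.84 to 71.12 CPM with overlapping numbers, and log2 differences of 0.03 (adjusted p = 0.787) and -0.20 (adjusted p = 0.0426). With IFNγ and the block 2 of the 18 (11.1%) were called, beside 14.3% of all genes. Tut7, which adds uridines to histone mRNA for decay, was higher (log2 0.32, adjusted p = 6.721e-04) and Lsm11, of the U7 particle that guides cleavage, lower (-0.35, adjusted p = 0.0212).

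Histone genes outside the clusters, whose mRNAs are mostly polyadenylated, moved with the number as well. Whether any of them, such as H2afx, also makes an mRNA ending in the stem-loop was not tested. Of 9 tested, 7 were lower and 1 higher in libraries 3, and 6 were lower in 4 than in 5 (77.8% and 66.7% lower, beside 18.9% and 15.2% of all genes). H1f0, a linker histone linked to resting and differentiated cells, had 69.86, 185 and 275.7 CPM in media libraries 3, 4 and 5, 50.37, 148.3 and 250 with IFNγ, and 59.48, 140.3 and 251.3 with FK866 added. It was lowest in libraries 3 throughout, at log2 -1.76 (adjusted p = 9.161e-14). H2afx, the H2A variant phosphorylated at DNA breaks, differed by -1.25 (adjusted p = 2.356e-11) and -0.67 (adjusted p = 1.213e-06), and the replacement H3 gene H3f3b by -0.58 and -0.29. Of 20 histone chaperones and importers, 5 were higher (25%) and 6 lower (30%) in libraries 3, beside 19.6% and 18.9% of all genes. Between 4 and 5, 3 were higher (15%) and 6 lower (30%), beside 15.9% and 15.2%. Ipo4, an importin for H3 and H4, was higher in libraries 3 (log2 0.64, adjusted p = 1.439e-06) and Anp32e, which removes the variant H2A.Z, lower (-0.41, adjusted p = 2.947e-06). With IFNγ and without the block, 1 of the 20 (5.0%) was called, beside 3.3% of all genes. This was Daxx, a chaperone of replacement H3, from 17.01 to 21.13 CPM in media to 33.29 to 43.12 CPM (log2 0.99, SE 0.14, adjusted p = 0.00318).

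Of 22 genes of DNA replication, 9 were lower and 1 higher in libraries 3 (median log2 -0.16), and 12 were lower in 4 than in 5 (median -0.23). The lower calls were 40.9% and 54.5% of the list, beside 18.9% and 15.2% of all genes. Rrm1, a subunit of ribonucleotide reductase, differed by -0.50 in libraries 3 (adjusted p = 6.796e-07), and E2f1 by -0.35 and -0.64 (adjusted p = 2.843e-04 and 2.445e-06). Genes of G2 and mitosis gave 2 higher and 7 lower of 18 in libraries 3, and 4 higher and 2 lower between 4 and 5. Lower calls were 38.9% and 11.1% of this list, beside 18.9% and 15.2% of all genes. Higher calls were 11.1% and 22.2%, beside 19.6% and 15.9%. In either direction 50.0% and 33.3% of the list were called, beside 38.5% and 31.1% of all genes. Of the 22 genes of DNA replication, 1 (4.55%) was called with IFNγ without the block, beside 3.3% of all genes. This was Cdk2, the kinase of S phase entry, with 366 to 429.6 CPM in media and 229.8 to 285.1 with IFNγ (log2 -0.70, adjusted p = 0.0337). The part of cell cycle state in the histone differences was not tested.

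RNAs made without a poly(A) tail were also counted, although the labels name polyA RNA. A list of 15 such RNAs took 3.069% to 3.926% of the counts in libraries 3, 2.963% to 3.602% in libraries 4 and 4.142% to 4.518% in libraries 5. Libraries 5 were highest, while libraries 3 and 4 overlapped. Of 14 tested, 4 were lower in libraries 3 and 8 lower in 4 than in 5, with none higher. These are 28.6% and 57.1% of the list, beside 18.9% and 15.2% of all genes called lower. In either direction 38.5% and 31.1% of all genes were called. Rn7sk, a small nuclear RNA that holds back transcription elongation, differed by -0.36 (adjusted p = 9.286e-06) and -0.52 (adjusted p = 1.143e-06). Taking the list out of the totals and the scaling left 39 and 38 histone genes called. The part of RNA selection in the histone differences was not tested.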

How the data were processed

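The authors deposited counts of reads, not normalised, for Ensembl genes in 9 libraries of bulk RNA; the series text names a 10x platform, but the table has no values per cell. The submitters' processing notes name, without roles, cutadapt 1.16, STAR 2.7.6a, featureCounts 1.6.3 and DESeq2 1.30.1. The sources used here do not give strandedness, annotation release or the handling of multiply matching reads. Of 55487 rows, 55227 matched GENCODE M21.

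Genes were tested on these counts by quasi-likelihood in edgeR 4.0.16 under R 4.3.3, after filterByExpr and TMM scaling (calls at a Benjamini-Hochberg adjusted p below 0.05 over the 15237 genes kept), all 9 libraries in 1 fit of treatment means. Comparisons of numbers used treatment plus number. DESeq2 1.42.0, limma 3.58.1 (voom), other scalings, no filter, single libraries left out and the number as a replicate block were alternatives. Same-numbered libraries deviated from their treatment means together (9 pairs, r from 0.593 to 0.759), and on this, with the titles, the pairing rests. Deviations within a treatment cancel out. The remaining 18 pairs (r from -0.509 to -0.14) are therefore pulled negative and add no separate support. Replicates differed by more than counting noise (chi-square per degree of freedom 23.02 to 39.46). Scripts were tested on simulated data. Total counts of 15317003 to 18466972 per library limit the precision of low genes.

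Levels are TMM-normalised CPM. Named are the 12 histone genes with most counts, per comparison up to 6 called genes per direction with the largest change, the genes next to the count rule, and the 3 genes with the smallest p of each list. Slbp, further examples of stem-loops and members said to be picked after their values were seen are added. The members and gene lists were chosen with earlier results of these data known, so no p-value is adjusted over a list or given for a sum.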

Additional observations from a re-analysis of the deposited data

How the results depend on the processing

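The counts of histone genes that differed between numbers stayed within 1.5-fold of the reported 39 and 38 in every alternative run: 33 to 45 for libraries 3 against 4 and 5, all lower, and 32 to 46 for libraries 4 against 5. The 33 and 32 came without the treatment term, both of 51 genes, beside 25.6% and 16.3% of all genes called. The 45 and 46 came with no filter on low counts, both of 61 genes. The 45 stood beside 22% of all genes called, and the 46 (42 lower and 4 higher) beside 17.6%. Leaving out 1 library gave 37 to 40 and 33 to 39, beside 27.1% to 38.4% and 19.7% to 34.3% of all genes. For 4 against 5 it gave 1 higher gene without IFNγ library 4, 2 without FK866 library 4 and 1 without FK866 library 5. The treatment counts depended on the replicate block, since the numbers pair the libraries. For IFNγ against media, 0 genes without the block became 5 higher with the replicate block, 4 higher with DESeq2 and the block, 5 with limma-voom and the block (4 higher, 1 lower), and 1 higher with no filter on low counts. In the same order these settings called 14.3%, 12.1%, 14.1% and 2.08% of all genes. With the block and number 3, 4 or 5 left out the count was 6 (4 higher, 2 lower), 4 (3 higher, 1 lower) or 3 (all higher). Leaving out 1 library without the block gave 0 to 1, the 1 without IFNγ library 3. For IFNγ with FK866 against IFNγ, the count stayed at 0 except for 2, both lower, with the block and without number 3 (0.0523% of all genes called). For IFNγ with FK866 against media, the replicate block gave 3 higher, beside 16.1% of all genes called. DESeq2 with the block gave 3 higher, beside 13.3%, and limma-voom with the block 4 (3 higher, 1 lower), beside 16.1%. With the block and number 3, 4 or 5 left out the count was 4 (1 higher, 3 lower), 14 (all higher) or 3 (all higher). The fits with the block in another tool or without a number were added after seeing the data. Taking out 1 library without the block breaks a pair, and some log2 values then changed sign. For IFNγ against media the values ran from -0.07 to 0.68 for Hist1h2be, -0.17 to 0.77 for Hist1h2bh, -0.14 to 0.74 for Hist4h4 and -0.13 to 0.54 for Hist1h2bg, lowest without IFNγ library 5 and highest without media library 5; Hist4h4 was also -0.07 without media library 3. For IFNγ with FK866 against media they ran from -0.14 to 0.80 for Hist1h2bh, -0.21 to 0.71 for Hist4h4 and -0.11 to 0.58 for Hist1h2be, lowest without the FK866 library 5, and without media library 3 Hist4h4 was -0.10 and Hist1h2be -0.02. Hist1h4k in libraries 4 against 5 ran from -3.97 to 0.33, the latter without IFNγ library 5. The cause of these changes was not tested. Depth limits the 13 genes under 1 CPM, and shared sequence limits the 29 genes with under 50% unique windows.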
